A study of Mus musculus with 4 samples.

Results

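The 39 genes described here are markers of the phases of cell division, and they were followed by name through 4 single-cell RNA libraries that each measured 32285 genes. Of the 39, 19 are listed under S phase, when DNA is copied, and 20 under G2/M, when the copied chromosomes are parted. The S list held the helicase subunits Mcm2, Mcm3, Mcm4, Mcm5, Mcm6 and Mcm7, their loaders Cdc6 and Cdt1, the replication factors Gins2, Pcna, Pclaf and Uhrf1, the nucleotide enzymes Tyms, Rrm1, Rrm2 and Dut, the repair enzyme Ung, the histone message binder Slbp and the cyclin Ccne1. The G2/M list held the cyclins Ccna2, Ccnb1 and Ccnb2 with the kinase Cdk1, the kinases Plk1, Aurka, Aurkb and Bub1, the Aurora kinase partners Birc5, Cdca8 and Tpx2, the spindle proteins Nusap1, Prc1 and Kif11, the kinetochore proteins Cenpe and Cenpf, the degradation factors Cdc20 and Ube2c, the topoisomerase Top2a and the proliferation antigen Mki67. All 39 were found by symbol, and the same rule called a cell cycling when it held at least 3 UMIs (molecules counted after removal of copies) of Mki67 and Top2a together.

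The cells came from liver metastases of MC38, a mouse colon carcinoma line, in C57BL/6J mice, and had been selected on beads for CD45, the leukocyte surface phosphatase encoded by Ptprc. All mice are labelled WT themselves, ate a low-fat or a high-fat diet and carried either unmodified MC38 tumours (WT) or tumours of its Yap knockdown derivative (shYap). The 4 pairings gave 1 library apiece, called LFD_WT, LFD_shYap, HFD_WT and HFD_shYap after their titles, and values of all 4 are given in that order throughout. WT in these names is the tumour line, not the mouse. No pairing had a replicate, and the labels used here do not give the number of mice behind a library. The labels of LFD_shYap conflict, with a low-fat title beside a treatment entry of high fat. Grouping followed titles, so each diet value and each comparison of LFD_shYap with LFD_WT rests on it.

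Cells enter the cycle when cyclin D kinases, held back by inhibitors such as Cdkn1a and Cdkn1b, release E2F transcription factors from the retinoblastoma protein, and E2F then switches on the genes that copy DNA. The genes of mitosis follow later, through the MuvB complex with B-Myb and FoxM1, which binds a promoter element called CHR and often acts beside CCAAT boxes bound by NF-Y. In tumours, macrophages can divide in the tissue, activated T cells divide after antigen contact, and mature neutrophils have left the cycle.

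Printed here are the promoters of the 3 genes of each list that were best separated between cells rich in S messages and cells rich in G2/M messages. They let the letters before the start site be compared, and are too few to show a difference between the phases. Sequences are those of RefSeq on GRCm38.p6, read 5′ to 3′ on the strand of the gene, and leave out bases of any exon annotated in GENCODE M21. The stretch of Cdc6 lies before the start of one annotated transcript and inside the first intron of a longer one, and the other stretches lie upstream of the annotated gene. Capitals mark an E2F site (TTCCCGC or TTCGCGC or TTGCCGC or TTGGCGC), a CHR element (TTTGAA or TTCGAA) or a CCAAT box (CCAAT), each searched on both strands. Mcm6 and Top2a were added after their matches had been seen.
Ung, S list, chr5:114130185-114130385, plus strand: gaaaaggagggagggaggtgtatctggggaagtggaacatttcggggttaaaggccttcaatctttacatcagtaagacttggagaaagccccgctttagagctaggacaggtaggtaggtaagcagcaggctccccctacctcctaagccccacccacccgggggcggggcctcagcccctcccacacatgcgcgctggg
Ccne1, S list, chr7:38107535-38107740, minus strand: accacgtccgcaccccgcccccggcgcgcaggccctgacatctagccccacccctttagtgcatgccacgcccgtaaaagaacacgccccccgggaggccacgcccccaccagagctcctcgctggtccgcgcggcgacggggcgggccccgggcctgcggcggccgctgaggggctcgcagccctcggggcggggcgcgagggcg
Cdc6, S list, chr11:98907982-98908150, plus strand: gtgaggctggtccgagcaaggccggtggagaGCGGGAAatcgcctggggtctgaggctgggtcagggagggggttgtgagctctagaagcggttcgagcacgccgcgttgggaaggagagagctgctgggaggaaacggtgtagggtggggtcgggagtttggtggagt
Mcm6, S list, chr1:128359706-128359955, minus strand: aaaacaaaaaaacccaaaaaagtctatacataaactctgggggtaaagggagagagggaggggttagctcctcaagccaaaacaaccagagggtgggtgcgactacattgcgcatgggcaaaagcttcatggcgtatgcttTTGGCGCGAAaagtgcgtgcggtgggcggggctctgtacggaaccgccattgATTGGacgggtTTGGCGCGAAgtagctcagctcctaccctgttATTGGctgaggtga
Ube2c, G2/M list, chr2:164769679-164769897, plus strand: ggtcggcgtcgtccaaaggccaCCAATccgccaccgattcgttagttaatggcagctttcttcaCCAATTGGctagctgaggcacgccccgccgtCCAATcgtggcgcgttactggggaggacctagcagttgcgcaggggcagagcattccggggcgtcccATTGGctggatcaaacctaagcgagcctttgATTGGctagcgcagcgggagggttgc
Cdc20, G2/M list, chr4:118437353-118437593, minus strand: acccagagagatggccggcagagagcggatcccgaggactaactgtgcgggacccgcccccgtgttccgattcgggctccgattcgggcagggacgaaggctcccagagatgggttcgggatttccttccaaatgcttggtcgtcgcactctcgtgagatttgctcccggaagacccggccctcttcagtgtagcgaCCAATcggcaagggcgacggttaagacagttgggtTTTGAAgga
Cenpf, G2/M list, chr1:189688087-189688336, minus strand: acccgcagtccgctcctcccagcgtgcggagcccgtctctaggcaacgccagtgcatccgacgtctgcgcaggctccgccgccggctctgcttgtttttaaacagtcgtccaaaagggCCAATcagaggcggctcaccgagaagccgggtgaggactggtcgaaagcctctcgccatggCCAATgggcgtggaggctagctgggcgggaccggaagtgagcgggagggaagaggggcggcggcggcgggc
Top2a, G2/M list, chr11:99024190-99024439, minus strand: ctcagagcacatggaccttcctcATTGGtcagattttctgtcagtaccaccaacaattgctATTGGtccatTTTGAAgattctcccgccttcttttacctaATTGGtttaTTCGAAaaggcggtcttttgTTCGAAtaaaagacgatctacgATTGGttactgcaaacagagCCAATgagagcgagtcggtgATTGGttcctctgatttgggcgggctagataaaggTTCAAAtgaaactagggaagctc
Ung and Ccne1 held none of these letters in the window, and Cdc6 held 1 E2F site. In Mcm6 the capitals TTGGCGCGAA, printed at 2 places, are each a pair of overlapping E2F matches on opposite strands. Ube2c held 6 CCAAT matches, and its CHR match, like that of Cenpf, lies outside the printed stretch. Top2a held 4 CHR and 6 CCAAT matches, and Cdc20 carried its CHR match 18 bases before the start site.

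The same windows, from 250 bases before to 50 bases after each start site, were available for 34 of the 39 genes, 17 of each list; Ccna2, Gins2, Mcm4, Tpx2 and Aurkb were not matched. An E2F site stood in 10 of 17 S genes (58.8%) and in 3 of 17 G2/M genes (17.6%), against 10.9% of 27025 genes with a window. A CHR element together with a CCAAT box stood in 13 of 17 G2/M genes (76.5%) and in 2 of 17 S genes (11.8%), against 9.65% of all genes. A further 33 replication and 45 mitosis genes were listed as partners of the 39. An E2F site stood in 80.8% of 26 replication and 27.0% of 37 mitosis genes with a window. A CHR element together with a CCAAT box stood in 19.2% and 56.8% of them. A CHR element, with or without a CCAAT box, stood in 23.1% and 73.0%, against 21.7% of all genes. A match is a run of letters and not a measured binding site. The 39 genes lie on 16 chromosomes.

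After filtering, 38243 of 50062 barcodes were kept, 7281 to 11084 per library, with a median of 6474 to 9826 UMIs per cell; 14 to 40 barcodes were shared by a pair of libraries. Yap1, the target of the knockdown, was read in tumour-like cells, where it stood at 20.8 CPM (UMIs per 1000000 UMIs of those cells; exact 95% Poisson interval 18 to 24.0), 14.0 CPM (11.4 to 16.9), 16.0 CPM (13.8 to 18.4) and 19 CPM (14.3 to 24.8). Under the high-fat diet it was therefore not lower in the knockdown library, against its label, and every direction by tumour line below is between libraries labelled WT and shYap. Xist, made from the inactive X chromosome of females, stood at 359 CPM in the library labelled HFD_shYap and at 0.0196 to 0.0531 CPM in the other libraries, while Y-linked RNA stood at 102 to 121 CPM in all 4. In any comparison with HFD_shYap, diet or tumour line cannot be told apart from this difference in Xist-bearing cells. Ptprc was found in most cells of the immune types (83.7 to 92.7% of phagocytes with a UMI), but clusters carrying tumour and fibroblast markers were present too. Cell types were rebuilt from marker genes, so each name below stands for cells that are like that type. The tumour-like cells, cluster 15, raised 4 of 9 tumour-like markers and also 4 fibroblast markers. They numbered 891, against 1676 when cycle genes could enter the clustering. The border between tumour-like and fibroblast-like cells is therefore loose, and the Yap1 values rest on it.

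Of the kept cells, 4188 (11%) were cycling: 1204, 835, 1385 and 764 in the 4 libraries. Within them the 39 genes sorted by phase as they were listed. The 3960 cycling cells with at least 10 UMIs of these genes were ordered by the G2/M share of those UMIs, computed each time without the gene in question, Mki67 and Top2a, and cut into 3 equal parts of about 1320 cells. All 39 genes had their higher level at the end of the order that matches their list, in each of the 4 libraries, and also among phagocytes alone, among T lineage cells alone and with a minimum of 20 UMIs. Because the other genes of the lists set the order, this describes how the 39 vary together and is not a test.

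Among S genes the sharpest was Ung, which removes uracil from DNA: 25.4 CPM in the S end of the order, 4.12 CPM in the middle and 1.03 CPM in the G2/M end, a log2 ratio of -4.63 (-6.07 to -3.95 over libraries). Ccne1, the cyclin that drives entry into S phase, went from 40.1 CPM to 24.2 and 5.39 CPM, and Cdc6, which loads the helicase, from 26.0 CPM to 11.9 and 4.69 CPM. Ccne1 and Cdc6 act at or just before the start of replication. Tyms, Rrm1 and Pclaf, which make DNA building blocks or sit on the replication clamp, were highest in the middle of the order instead, at 114, 140 and 488 CPM. Rrm1 and Pclaf were accordingly the least separated genes of the list, with log2 ratios of -0.50 and -0.57. Most S genes were less separated in T lineage cells than in phagocytes. Dut, which clears dUTP, had log2 ratios of -2.43 in phagocytes and -0.83 in T lineage cells, Rrm2 -2.1 and -0.63, and Mcm2 -2.53 and -1.44. Gins2 went the other way (-1.27 and -1.53), and Pclaf was equal in both (-0.42).

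Among G2/M genes the sharpest was Ube2c, the ubiquitin-conjugating partner of the anaphase-promoting complex, at 37.6 CPM in the S end, 233 CPM in the middle and 821 CPM in the G2/M end. Its log2 ratio was 4.45 (4.16 to 4.76 over libraries). Cdc20, which activates the same complex, went from 8.28 CPM to 32.1 and 142 CPM, and the kinetochore protein gene Cenpf from 23.4 CPM to 102 and 356 CPM. The flattest of the list were Top2a (log2 ratio 1.09), Cdk1 (1.22), Aurkb (1.23) and Mki67 (1.34). Every cell in the order was chosen for UMIs of Mki67 and Top2a, so the small separation of Mki67 and Top2a is bound to that choice and is not read as theirs. Cdk1 and Aurkb did not choose the cells, and the cause of their small separation was not tested. Top2a and Mki67 were already at 479 and 293 CPM in the middle of the order, near their 532 and 327 CPM at its end.

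**Figure D1:**
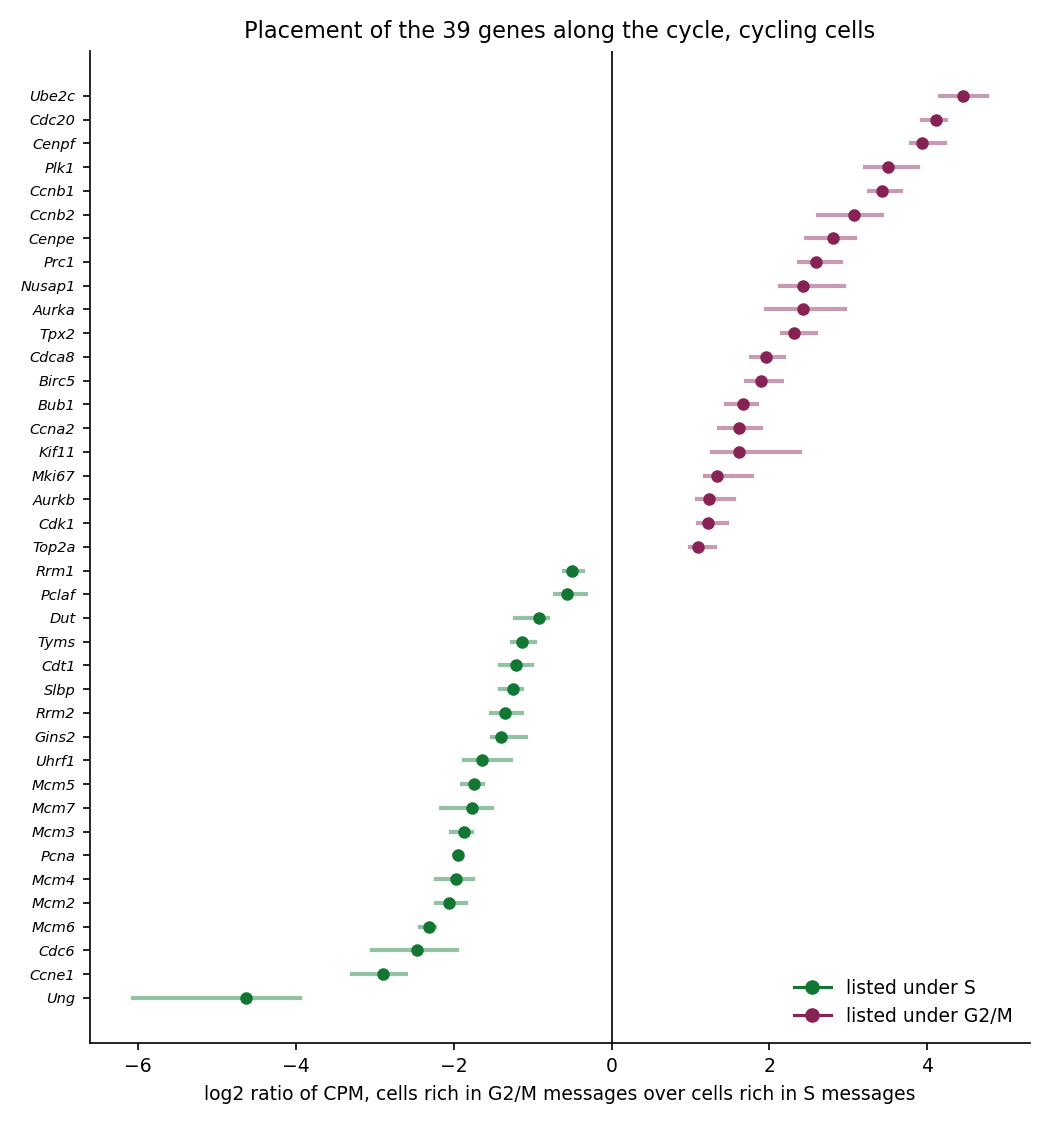
Log2 ratio of CPM between the G2/M end and the S end of the order of cycling cells (horizontal axis) for each of the 39 genes (points, all libraries together), with lines from the lowest to the highest of the 4 libraries. All 19 S genes lie below 0 and all 20 G2/M genes above it, from Ung at -4.63 to Ube2c at 4.45.

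Set against cells that were not cycling, G2/M genes differed far more than S genes. The median fold between cycling and other phagocytes was 19.7 for the 18 G2/M genes that did not choose the cells and 3.19 for the 19 S genes, against 1.05 for 12595 genes with at least 100 UMIs, of which 1.77% passed 5-fold. In T lineage cells the medians were 15.7 and 3.04, against 0.972. These folds describe cells chosen by Mki67 and Top2a, which vary with the rest of the list, and carry no test. Cycling cells were also deeper, with 14133 to 22074.5 UMIs at the median in phagocytes against 7394 to 11065 in the others, and the folds are of CPM for that reason.

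The highest folds in phagocytes belonged to genes of the mitotic spindle. Nusap1, which bundles microtubules, was at 109.8 CPM in cycling and 2.627 CPM in other phagocytes, a fold of 41.8 (31.5 to 53.0 over libraries). Kif11, the motor that pushes spindle poles apart, had a fold of 35.6, Prc1 of the central spindle 27.4 and the cyclin Ccna2 26.8. In T lineage cells the order began with the checkpoint kinase gene Bub1 (33.6), then Ccna2 (28.1), Nusap1 (26.5) and Tpx2 (24.7), which activates Aurora A on the spindle. Aurka itself, coding for Aurora A, had the lowest fold of the G2/M list in both, at 4.69 and 3.94.

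At the other end stood Cdt1, which licenses origins in G1 and is destroyed in S phase, at 36.05 CPM in cycling and 21.54 CPM in other phagocytes, a fold of 1.67 (1.37 to 2.01 over libraries). Slbp, needed to process histone messages, followed at 1.76, Pcna at 2.27 and Mcm4 at 2.42. In T lineage cells the lowest were Slbp (1.74), Cdt1 (1.76), Mcm6 (2.09) and Ung (2.11). Messages of Pcna and Slbp stood at similar levels in phagocytes and in neutrophil cluster 6, where almost no cell was cycling. Pcna was slightly lower there, at 181.5, 150.1, 155.8 and 185.3 CPM, against 208, 158, 169 and 195 CPM in phagocytes. Slbp stood at 58.38, 65.0, 65.54 and 85.73 CPM in those neutrophils and at 67.7, 59.9, 64.5 and 71.3 CPM in phagocytes, so it was lower in neutrophils in LFD_WT only.

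Some S genes differed as much as the mitotic genes. Pclaf had folds of 22.4 in phagocytes and 18.1 in T lineage cells, and Rrm2, the regulated subunit of ribonucleotide reductase, of 19.2 and 14.5. Cdc6 had a fold of 3.04 (2.31 to 4.63 over libraries) in phagocytes and 9.93 (8.95 to 11) in T lineage cells, and Prc1 of 27.4 (22.0 to 33.5) and 8.75 (6.99 to 14.5). Such gaps were as common elsewhere: the library ranges of the 2 types did not overlap for 7 of 36 genes of the lists that could be compared (19.4%; Ccne1, Cenpe, Dut, Kif11, Prc1 and Tyms higher in phagocytes, Cdc6 higher in T lineage cells), against 18.9% of 9109 genes. The share is near that background and is not a result about these genes.

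**Figure D2:**
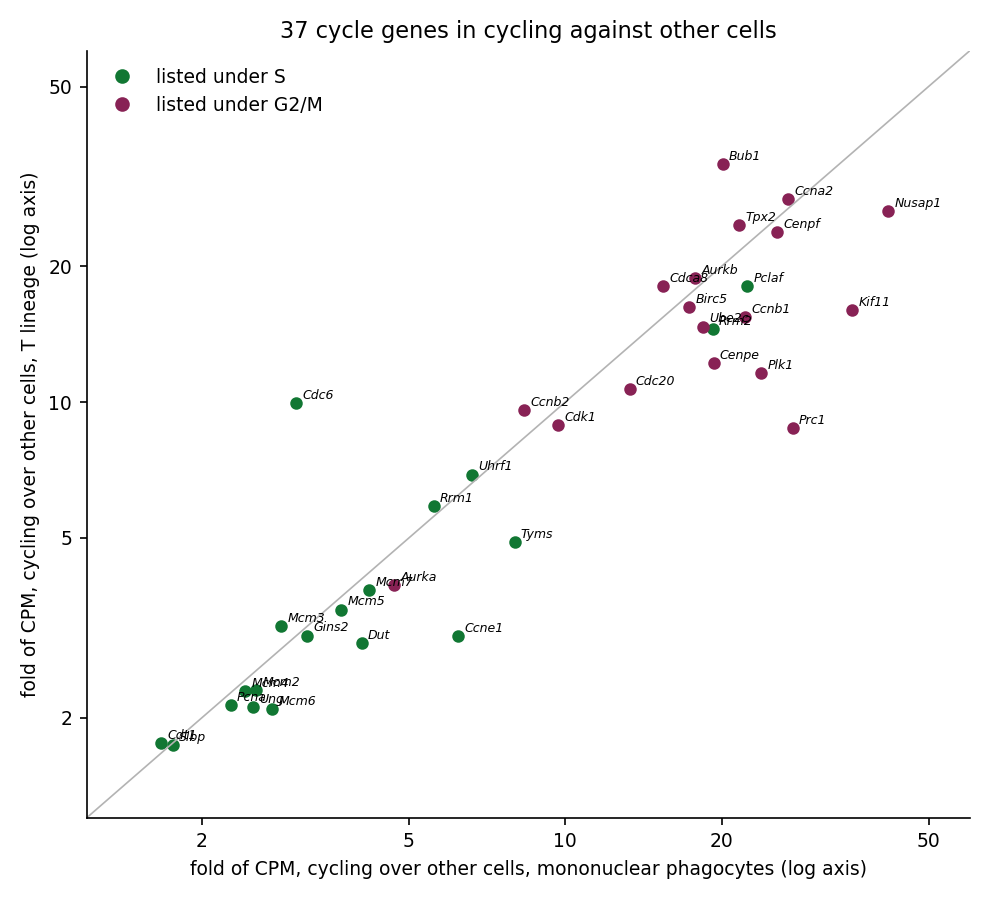
Fold of CPM between cycling and other cells in mononuclear phagocytes (horizontal log axis) and in T lineage cells (vertical log axis) for 37 genes, without Mki67 and Top2a; the grey line marks equal folds. G2/M genes lie above 8-fold in both types apart from Aurka, and Cdt1 and Slbp lie lowest.

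Partner genes followed the same split. Of 33 replication partners 32 passed 2-fold in phagocytes and 32 in T lineage cells, with medians of 4.01 and 4.12, and of 45 mitosis partners 44 passed 2-fold in each, with medians of 13.6 and 10.4. The 25 regulators that act before the start of the cycle did not follow it, with medians of 1.18 and 1.10. The D cyclins, which carry growth signals to the cycle, had folds of 1.18 (Ccnd1), 1.02 (Ccnd2) and 1.07 (Ccnd3) in phagocytes. In T lineage cells Ccnd2 was lower in cycling cells, at 196.5 against 342.5 CPM, a fold of 0.574 (0.534 to 0.605 over libraries). Of the inhibitors, Cdkn1b (p27) had folds of 0.859 and 0.648 and Cdkn1a (p21) of 0.818 and 0.972, while Cdkn2c (p18) was higher in cycling cells, at 4.61 in phagocytes and 2.27 in T lineage cells.

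Cycling cells made up unequal shares of the cell types. In mononuclear phagocytes, the largest type, 10.9% (687 of 6307), 8.4% (495 of 5893), 14.7% (925 of 6300) and 11.3% (516 of 4557) were cycling. In the T lineage the shares were 12.5%, 15.2%, 12.3% and 12.2%, of 710, 719, 1263 and 982 cells. On finer clustering its sub-clusters 0, 7, 11 and 12 were led by genes of other types, among them Pf4, Chil3, Cd209a and S100a9 in turn. They held 585, 198, 57 and 16 cells and stayed in the T lineage values. Of them 4.62%, 20.2%, 15.8% and 31.2% were cycling, and Cd3e was found in 28.5% of sub-cluster 0. Dendritic cells gave 9.23%, 8.47%, 12.8% and 13.6%. The background was set by neutrophil cluster 6, led by Retnlg, Cxcr2 and S100a9, in which 9 of 2236 cells (0.403%) passed, at a median of 1903.5 UMIs per cell against 9675 in phagocytes and 5021.5 in the T lineage. B lineage cells were as low, at 3 of 508 (0.591%).

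Since depth differed, each cell was also thinned to 3000 UMIs and shallower cells were left out. The shares then were 4.71%, 3.15%, 6.4% and 4.16% in phagocytes, 8.46%, 9.83%, 9.2% and 6.6% in the T lineage and 3.67%, 3.65%, 6.91% and 3.12% in dendritic cells. In neutrophil cluster 6 it was 1.46%, of the 274 cells deep enough. Tumour-like cells, which like fibroblasts lie outside the CD45 selection and were the deepest, gave 70.1%, 55.3%, 42.6% and 39.6% as measured and 11.6%, 9.36%, 9.42% and 13.5% after thinning, so no order of libraries is read from them. A cluster of 45 immature neutrophils, led by Camp, Ngp and Ltf, held 6 cycling cells (13.3%).

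**Figure D3:**
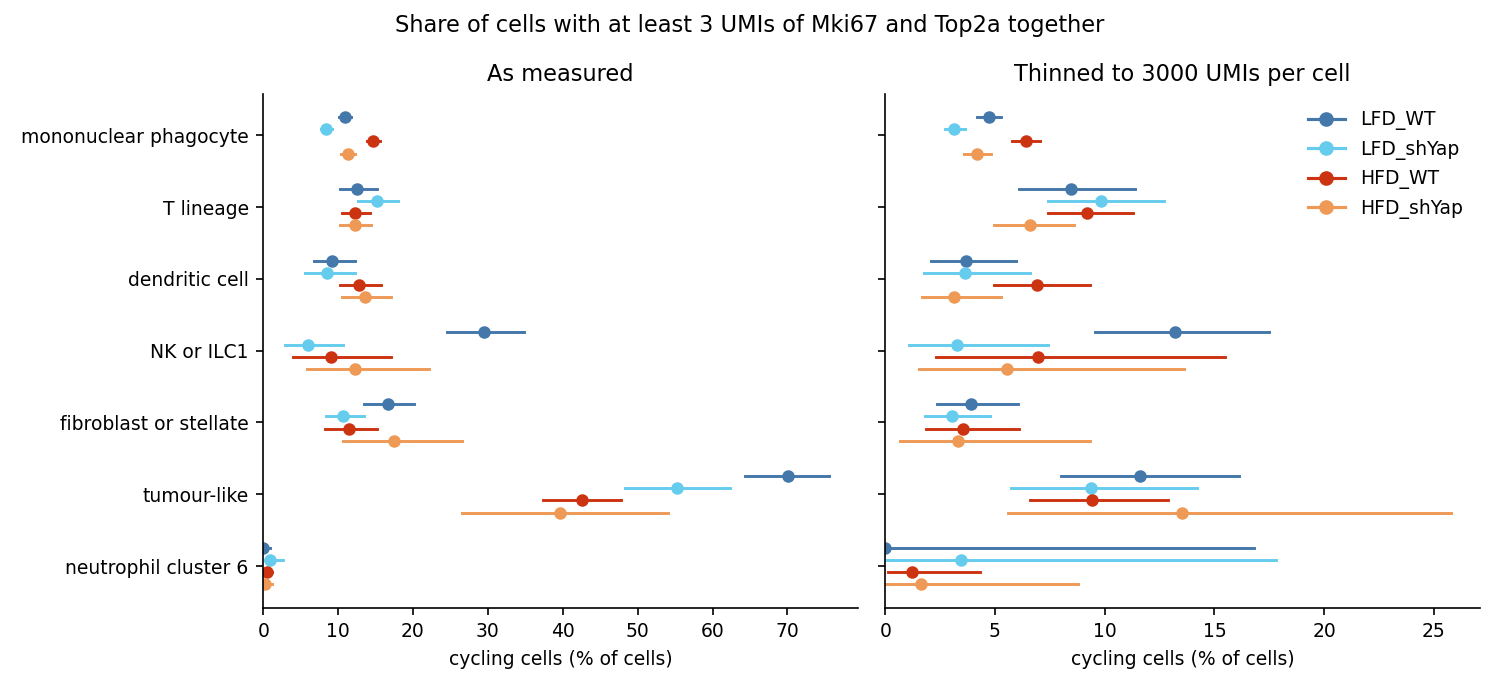
Share of cells with at least 3 UMIs of Mki67 and Top2a (points, with exact 95% binomial intervals that cover counting error only), by cell type and library, as measured (left) and after thinning to 3000 UMIs (right). In phagocytes HFD_WT is highest (14.7% and 6.4%) and LFD_shYap lowest (8.4% and 3.15%) in both panels, and neutrophil cluster 6 stays near 0 as measured.

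In phagocytes both genes that choose the cycling cells were highest in HFD_WT. Mki67, a protein that coats mitotic chromosomes, stood at 58.4, 56.9, 81.4 and 58.5 CPM, so HFD_WT was apart and the other libraries lay close together. Top2a, which untangles DNA before chromosomes part, stood at 99.5, 70.9, 115 and 85.7 CPM, high in both libraries labelled WT. The share of cycling phagocytes was 1.35 times higher (interval 1.23 to 1.48) in HFD_WT than in LFD_WT and 1.35 times (1.2 to 1.52) in HFD_shYap than in LFD_shYap. It was 0.771 times that of the WT library in both shYap libraries, with intervals of 0.691 to 0.861 under the low-fat and 0.697 to 0.853 under the high-fat diet. These intervals cover counting error alone and, with 1 library per combination, say nothing of the spread between mice. The ratios with HFD_shYap also set a library with Xist-bearing cells against a library almost without Xist. That difference cannot be told apart from diet or line. After thinning, the diet ratios were 1.36 and 1.32 and the line ratios 0.668 and 0.650.

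The low value of LFD_shYap rested on one cluster. Cluster 8, led by Fbxo32, Vcam1 and Gdf15, held 2005 cells of which 1854 came from LFD_shYap, and 2.74% of it was cycling. Without it, an alternative chosen after the data were seen, the ratio of LFD_shYap to LFD_WT was 1 (0.896 to 1.12) and that of HFD_shYap to LFD_shYap 1.05 (0.929 to 1.18). The ratio of HFD_WT to LFD_WT remained 1.35 and that of HFD_shYap to HFD_WT was 0.778. With 1 library per pairing, that cluster and that library cannot be told apart.

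The higher share of HFD_WT than of LFD_WT was also seen within clusters, although the libraries filled them unequally: cluster 0 held 2302 cells of HFD_WT and 407 of LFD_WT, and cluster 1 held 413 and 1563. Cells are not replicates of a diet and all clusters come from the same pair of libraries, so the following tally is a description. Among 7 phagocyte clusters with at least 100 cells in both libraries the ratio was above 1 in 5, and its interval was above 1 in 4. These were cluster 4 of Mmp12- and Gpnmb-bearing cells (19.2% against 6.51%, ratio 2.95, 1.75 to 4.99), cluster 0 of Cxcl9- and MHC class II-bearing cells (15.7% against 7.13%, ratio 2.21, 1.53 to 3.17), cluster 1 of chemokine-bearing cells (1.74, 1.35 to 2.24) and cluster 2 of Fcrls- and Stab1-bearing cells (1.34, 1.10 to 1.64). After thinning the shares of HFD_WT and LFD_WT were 5.52% and 1.51% in cluster 4, 7.71% and 3.17% in cluster 0, 7.51% and 5.08% in cluster 1 and 11.2% and 8.01% in cluster 2. The interferon cluster 5 had the same share in both (17.9%) and the Ccl24- and Arg1-bearing cluster 3 a ratio of 0.923. After thinning cluster 5 gave 9.09% and 7.68%, and cluster 3 gave 1.39% in HFD_WT and 2.46% in LFD_WT, the opposite order. The other pairs of libraries were mixed. For LFD_shYap against LFD_WT the ratio was above 1 in 6 of 9 such clusters, with intervals above 1 in 2 and below 1 in 1. For HFD_shYap against LFD_shYap it was above 1 in 5 of 7, with 1 interval above and 1 below. For HFD_shYap against HFD_WT the ratio was under 1 in 5 of 6 such clusters, with intervals below 1 in 3, and above 1 in cluster 3 (2.11, 1.43 to 3.13).

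The clusters themselves spanned a wide range, and their order depended on depth. As measured, cycling cells made up 17.3% of cluster 5, 16.2% of cluster 2, 14.3% of the Lyve1-bearing cluster 13, 6.28% of cluster 3, 4.98% of cluster 25, led by the Kupffer cell gene Clec4f, and 1.34% of cluster 14, led by the monocyte gene Ly6c2. In cluster 22, led by Hspa1b, 1 of 368 cells was cycling. After thinning cluster 2 was highest (8.04%), above clusters 5 (7.0%), 0 (5.95%) and 1 (5.7%), and cluster 13 gave 4.07%, cluster 25 3.0%, cluster 3 2.48% and cluster 14 0.387%.

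**Figure D4:**
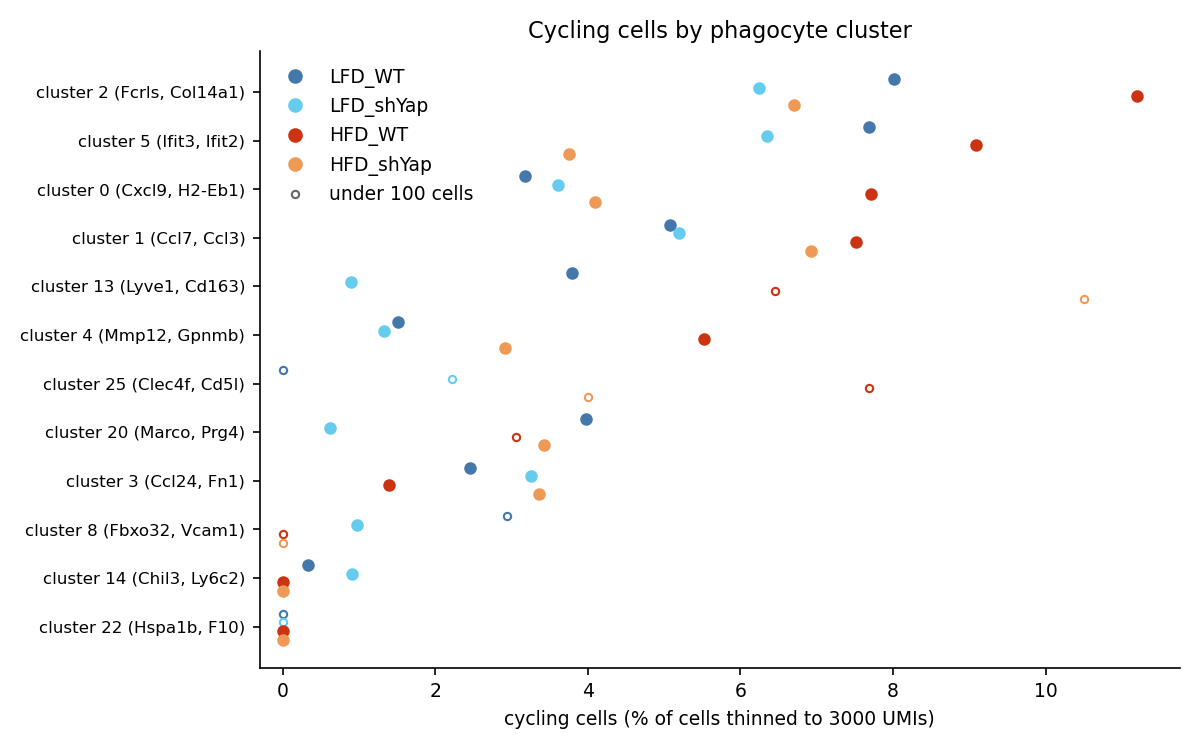
Cycling share after thinning to 3000 UMIs (horizontal axis, % of cells) in each phagocyte cluster, with 1 point per library; open points have under 100 cells. HFD_WT is farthest right in clusters 0, 1, 2, 4 and 5, and clusters 8, 14 and 22 stay low.

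Levels of the 39 genes over whole phagocytes were compared by diet and by tumour line with an additive edgeR quasi-likelihood fit on UMI sums of the 4 libraries. In bulk sums of this kind fewer cycling cells and less RNA per cycling cell cannot be told apart. For diet, the test called 0 of the 39 at an adjusted p under 0.05, against 0.467% of 14120 genes tested (0.326% higher and 0.142% lower under the high-fat diet). DESeq2 called 0 too, and 1 of the 39 had an unadjusted edgeR p under 0.05 (Rrm2, log2 0.41 ± 0.181 SE), against 6.69% of all genes. The median log2 change of high-fat over low-fat was 0.09 for S genes and -0.03 for G2/M genes, against -0.01 for all genes. Fits that left out a library held diet alone, so tumour line was unbalanced between the diets. They gave 0.36 and 0.19 without LFD_WT, where LFD_shYap alone stood for the low-fat diet. They gave -0.11 and -0.19 without LFD_shYap, where LFD_WT alone stood for it. In these fits the missing library and the unbalanced line cannot be told apart.

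For tumour line, the test again called 0 of the 39, against 0.0496% of all genes (0.0142% higher and 0.0354% lower in shYap), and DESeq2 called 0. Here 38 of the 39 genes had lower fitted levels in the libraries labelled shYap, and 23 (10 S and 13 G2/M) had an unadjusted edgeR p under 0.05, against 7.17% of all genes. The median log2 change was -0.38 for S and -0.41 for G2/M genes, against 0.01 for all genes. Leaving out each library, with line alone in the model and diet unbalanced, gave -0.52 to -0.20 and -0.52 to -0.37. Without cluster 8 both medians were -0.24. The lowest was Tyms, which makes thymidylate for DNA: 32.1, 16.2, 32.9 and 22.1 CPM, a log2 change of -0.80 ± 0.154 (SE, edgeR adjusted p = 0.216). Both shYap libraries lay below both WT libraries, in CPM, for 10 of 19 S genes and 16 of 20 G2/M genes, against 16.9% of all genes. Among them were Tyms, Pclaf (103, 54.6, 112 and 86.1 CPM, log2 -0.67) and Birc5, the survivin of the chromosomal passenger complex (79.1, 54.1, 83.6 and 54.6 CPM, log2 -0.60). The helicase genes were split, with Mcm3, Mcm4, Mcm6 and Mcm7 below and Mcm2 and Mcm5 overlapping. With no filter on low counts Tyms passed, at an adjusted p of 0.00253 over 21396 genes.

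The exception was Cdt1, at 20.4, 29.4, 20.6 and 27.2 CPM, with a log2 change of 0.44 ± 0.160 (SE, edgeR adjusted p = 0.646). Both shYap libraries lay above both WT libraries for this gene alone of the 39, as for 19% of all genes. It is also the one whose level differed least between cycling and other phagocytes. Among partners, 17 of 33 replication partners and 14 of 45 mitosis partners had an unadjusted p under 0.05, with medians of -0.46 and -0.33, and none was called. Of the 25 regulators 1 had such a p, with a median of -0.01. Ccnd1 stood at 170, 118, 163 and 154 CPM and Cdkn1a at 402, 407, 533 and 493 CPM.

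**Figure D5:**
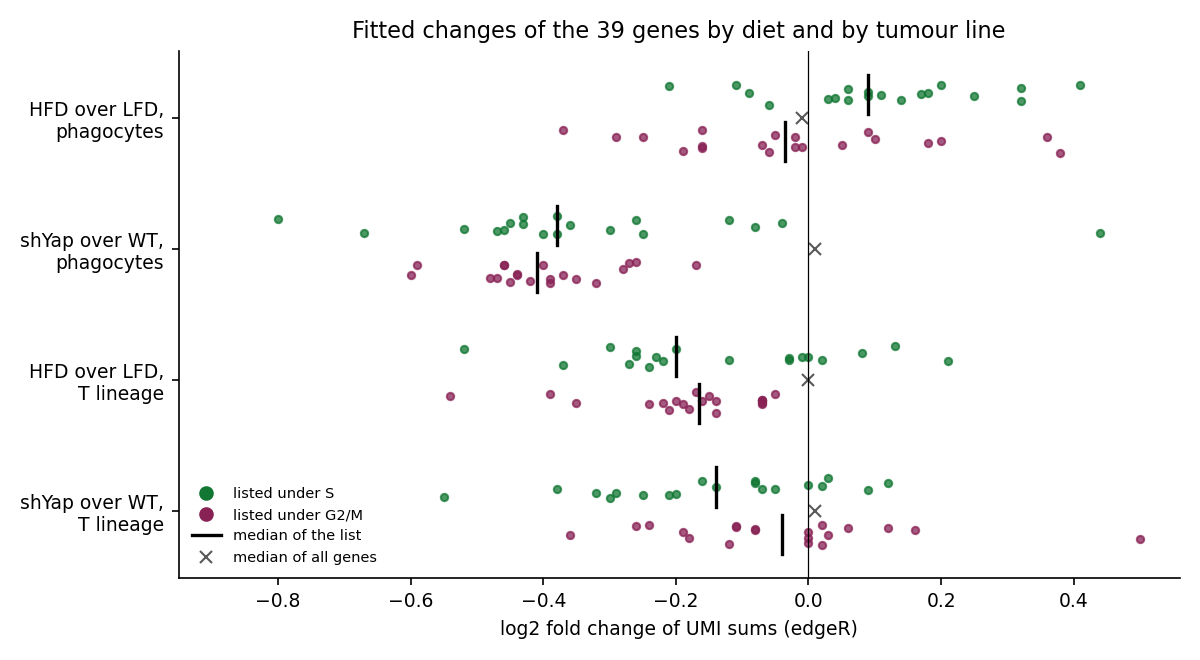
Log2 fold change of UMI sums (horizontal axis, edgeR) of each of the 39 genes (points) by diet and by tumour line in phagocytes and T lineage cells, with list medians (bars) and the median of all genes (crosses). By line in phagocytes 38 points lie below 0, and Cdt1 alone lies above it at 0.44; no point passed the adjusted threshold.

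In T lineage cells Mki67 stood at 124, 125, 130 and 118 CPM and Top2a at 225, 198, 202 and 175 CPM. The ratio of cycling shares, high-fat over low-fat, was 0.979 (0.767 to 1.25) in WT and 0.806 (0.634 to 1.03) in shYap. The ratio of shYap over WT was 1.21 (0.932 to 1.57) under the low-fat and 0.996 (0.796 to 1.24) under the high-fat diet, and each of these intervals includes 1. After thinning, HFD_shYap stood at 0.671 times LFD_shYap (0.464 to 0.972) and 0.717 times HFD_WT. The cells of HFD_shYap chosen for sex-linked RNA gave unlike values at 5000 UMIs: against LFD_shYap 0.422 (0.243 to 0.734) with Y-bearing and 0.964 (0.65 to 1.43) with Xist-bearing cells, and against HFD_WT 0.38 (0.223 to 0.648) with Y-bearing cells. Within cluster 9, of Cd8a-bearing cells, HFD_shYap was at 0.708 times LFD_shYap (0.532 to 0.941). The edgeR test called 0 of the 39 genes for diet, against 0.849% of 11074 genes (0.47% higher and 0.379% lower), and 0 for line, against 0.154% (0.0181% higher and 0.135% lower). DESeq2 called 0 in both. Unadjusted p under 0.05 was reached by 3 genes for diet (Gins2, log2 -0.52; Dut, -0.37; Plk1, -0.54), against 7.76% of all genes, and by 3 for line, against 6.05%. For line these were Tyms (67.0, 49.5, 61.2 and 41.5 CPM, log2 -0.55), Pclaf (-0.38) and Ccnb1, the mitotic cyclin (12.8, 26.9, 17.5 and 19.3 CPM, log2 0.50). Both shYap libraries lay below both WT libraries for 5 of 19 S genes, Tyms and Pclaf included, and 2 of 20 G2/M genes, against 13% of all genes, and above them for 2 and 1, against 20.7%. List medians were -0.20 and -0.17 by diet and -0.14 and -0.04 by line for S and G2/M genes, against 0 and 0.01 for all genes. They shifted when each library was left out in turn, with only the compared factor in the model and the other factor unbalanced. By diet the S median ran from -0.32 (without LFD_shYap) to -0.05 (without LFD_WT). The G2/M median by diet ran from -0.36 (without HFD_WT) to -0.01 (without HFD_shYap). By line the G2/M median ran from -0.30 without LFD_shYap to 0.12 without HFD_shYap, and the S median from -0.23 without HFD_WT to -0.01 without LFD_WT. With the diet of the treatment field the G2/M median by diet was 0.06.

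Within the T lineage the largest cycling shares among clusters of over 100 cells belonged to cells that bear Cd8a. Cluster 9, led by Cd8b1, Cd8a and Pdcd1, was cycling in 21.2%, 22.7%, 18.3% and 16.1% of cells (10.9%, 11.8%, 11.3% and 7.99% after thinning). Cluster 12, led by Tnfrsf4, Icos and Cd4, gave 7.12% over all libraries and cluster 18, led by Tcf7 and Lef1, 8.46% (6.24% and 4.92% after thinning, against 10.5% in cluster 9). On finer clustering 37.4% of sub-cluster 3 (19.8% after thinning) and 32.5% of sub-cluster 10 (9.33%) were cycling. Both are Cd8a-bearing, and sub-cluster 10 is led in part by Pclaf and Dut themselves, though all 39 genes were kept out of the clustering. The regulatory T-like sub-cluster 6 gave 7.37% (6.43% after thinning). A high share was not common to all Cd8a-bearing cells. Sub-clusters 1 and 2, with Cd8a in 66.5% and 87.1% of cells, gave 6.2% and 8.9% (3.99% and 6.2% after thinning). Sub-cluster 7, led by Chil3 and with Cd8a in 33.8% of cells, gave 20.2% (5.98% after thinning).

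NK or ILC1 cells had a wide spread between libraries. Mki67 stood there at 148.8, 42.69, 59.19 and 77.61 CPM and Top2a at 240, 78.26, 106.9 and 161.4 CPM, with LFD_WT above the rest for both. Cycling cells were 29.5% (95 of 322), 5.95% (10 of 168), 9.09% (8 of 88) and 12.3% (9 of 73), and 13.2%, 3.25%, 6.94% and 5.56% after thinning. LFD_shYap was at 0.202 times (0.108 to 0.377) and HFD_WT at 0.308 times (0.156 to 0.609) the share of LFD_WT. The S genes summed to 1940, 941, 1170 and 1230 CPM and the G2/M genes to 1570, 410, 538 and 756 CPM, both highest in LFD_WT, which was also the deepest library for these cells (9611.5 UMIs at the median, against 5752 to 8407). The part of depth in this difference was not tested. Among dendritic cells, in cluster 19, led by Xcr1 and Clec9a, 13.9%, 12.6%, 21.7% and 23.6% were cycling (5.26%, 5.71%, 12.8% and 6.37% after thinning), and HFD_shYap was at 1.87 times LFD_shYap (1.07 to 3.28). The Ccr7-bearing cluster 23 gave 3.0%.

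Counting S genes in place of Mki67 and Top2a gave another view of the same cells. With each cell thinned to 3000 UMIs, 13%, 6.3%, 11.4% and 10.2% of phagocytes held at least 5 UMIs of S genes, so LFD_WT and not HFD_WT was highest by this measure. In the T lineage the shares were 26.2%, 24.0%, 25.9% and 21%, and in NK or ILC1 cells 40.1%, 10.4%, 13.9% and 16.7%, against 2.92% in neutrophil cluster 6. Of 2212 such phagocytes 954 had no UMI of Mki67 or Top2a after thinning.

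The balance of S to G2/M messages within cycling cells differed by type and library. It is the log2 ratio of UMIs summed over the 19 S genes to UMIs summed over the 18 G2/M genes other than Mki67 and Top2a. In phagocytes it was -0.128, -0.403, 0.0468 and 0.257, lowest in LFD_shYap and highest in HFD_shYap. Of cycling phagocytes, 29.1% in LFD_shYap and 15.9% in HFD_shYap had over 75% of these UMIs in G2/M genes. After thinning the values were -0.314, -1, -0.457 and -0.0594, with the same libraries at the ends. T lineage cells lay further to the S side, at 0.783, 0.257, 0.273 and 0.458, and fibroblast-like cells further to the G2/M side, at -0.214, -0.939, -0.937 and -0.781. The place of the T lineage depended on the S genes summed. A narrow S list left out Pcna, Dut, Slbp, Ung, Rrm1, Rrm2, Tyms and Pclaf. With it, T lineage cells lay further to the S side than phagocytes under the low-fat diet only. Under the high-fat diet their values were close together. Zero has no meaning of its own on this scale, since it depends on which genes are summed.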

How the data were processed

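Values are unnormalized counts of UMIs, as deposited by the authors. Cell Ranger 6.0.0 stands in the file headers, whereas version 4.0.0 of Cell Ranger, STAR 2.5.1 and mm10 are listed in the submitters' processing notes. The authors' rule for keeping barcodes was not given in those sources. Chemistry was 10x 3′ v3.1, per the labels' protocols, and near-identical gene copies were not separated further. The 4 libraries held 106268471 to 144936859 UMIs.

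Barcodes with at least 200 genes and under 15% mitochondrial UMIs were kept. Doublets were scored against simulated ones and the top 0.8% per 1000 barcodes removed (7.67 to 11.8% per library). Cells were clustered (2000 variable genes, 30 components, 15 neighbours, leidenalg 0.10.2, resolution 1) without 363 cycle and sex-linked genes, so none of the 39 took part. Clusters were named from at least 3 raised markers. The ranking of candidate names was revised after a first result had left 2 clusters, 14 and 15 (the tumour-like cells), tied and unnamed. The markers stayed. The T lineage was clustered again into 13.

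Shares carry exact Clopper-Pearson and CPM exact Poisson 95% intervals, ratios of shares a log-scale 95% interval, all for counting error only. UMI sums per library were tested with edgeR 4.0.16 in R 4.3.3 (TMM, filterByExpr, additive diet and line, Benjamini-Hochberg at 0.05 over all genes). This left 1 residual degree of freedom, so p-values reflect the spread of these libraries alone. An SE is the absolute log2 change over the square root of F. On simulated counts with the diet design, 100 of 100 2-fold changes were recovered in phagocytes with 11 false calls among 13961 genes. In the T lineage 96 of 100 were recovered, with 1 false call among 10919. The line comparison was not simulated. These recoveries hold for the simulated counts and are not read as the power of the tests on the measured ones. By line in phagocytes, Tyms at a log2 change of -0.8 was not called (edgeR adjusted p = 0.216). A listed gene that was not called may therefore still differ. DESeq2 1.42.0, other filters, scalings, thresholds and thinning were alternatives. Fits that left out a library held only the compared factor, so the other factor was unbalanced in them.

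The members, lists and tests were chosen with earlier results of these data known. Named genes were the 4 highest and 4 lowest folds per type, the 3 best separated per phase, Mki67, Top2a and 6 regulators; others named, and the tallies of genes whose libraries did not overlap, were chosen after values were seen.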

Additional observations from a re-analysis of the deposited data

Results flagged for a closer look

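In fibroblast- or stellate-like cells the share of cycling cells moved in opposite directions with diet in the WT and shYap libraries. It was 16.6% in LFD_WT and 11.4% in HFD_WT, a ratio of 0.683 (0.481 to 0.971), and 10.7% in LFD_shYap and 17.5% in HFD_shYap, a ratio of 1.64 (1.01 to 2.68). The difference between these 2 ratios was not tested. The library labelled HFD_shYap held 97 such cells at a median of 31575 UMIs, against 15315.5 to 15932 in the other libraries. After thinning to 3000 UMIs the shares were 3.9%, 3.05%, 3.53% and 3.3% in LFD_WT, LFD_shYap, HFD_WT and HFD_shYap, each inside the interval of every other.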

How the results depend on the processing

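No paired analysis was possible because each pairing of diet and tumour line had 1 library and the labels give no replicate numbers. Placement by phase held for 39 of 39 genes under its 3 alternatives. Of 48 alternatives for the count of genes called, 47 gave 0, leaving out each library included (0 to 0), and 1, no filter by line in phagocytes, gave 1 (Tyms); a fit without a library leaves 1 sample in an arm, which is assumed to vary like the rest. Of 68 alternatives for ratios of cycling shares, 55 moved by less than the counting interval. In phagocytes HFD_WT to LFD_WT was 1.22 without doublet removal. HFD_shYap to LFD_shYap was 1.05 without cluster 8, 1.17 with equal weight per cluster and 1.54 with Xist-bearing cells of HFD_shYap at 5000 UMIs. LFD_shYap to LFD_WT was 0.668 thinned and turned to 1 without cluster 8 and 1.05 with equal weight. HFD_shYap to HFD_WT was 0.650 thinned, 0.651 with Y-bearing cells and 0.865 with equal weight. In the T lineage HFD_shYap to LFD_shYap was 0.422 with Y-bearing cells, and HFD_shYap to HFD_WT was 0.717 thinned and 0.380 with Y-bearing cells. Equal weights, the removal of cluster 8 and the removal of 4 T sub-clusters led by genes of other types were chosen after the data were seen.

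The S to G2/M balance moved under 38 of 60 alternatives; values follow in the order LFD_WT, LFD_shYap, HFD_WT and HFD_shYap. In phagocytes it was 0.00754, -0.246, 0.130 and 0.362 with a minimum of 2 UMIs, -0.253, -0.556, -0.075 and 0.151 with 5, -0.314, -1, -0.457 and -0.0594 thinned, and -1.81, -1.93, -1.56 and -1.29 with a narrow S list. Without doublet removal it was 0.0308 in LFD_WT, -0.318 in LFD_shYap and 0.319 in HFD_shYap. In the T lineage it was 0.640, 0.184, 0.141 and 0.364 with 5 UMIs, 0.222, 0.0538, 0.154 and 0.263 thinned, and -1.05, -1.48, -1.57 and -1.27 with the narrow list. With 2 UMIs it was 0.373, 0.366 and 0.596 in the last 3 libraries, and without the 4 sub-clusters 0.364, 0.207 and 0.551. Without doublet removal it was 0.576 in HFD_shYap. LFD_shYap was lowest and HFD_shYap highest in phagocytes at each of these settings that gave all 4 values. The cause of these shifts was not tested. With 1 library per combination no result here measures the spread between mice, and depth limits shares in neutrophils, B cells and the smaller types.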

Other observations

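Barcodes removed by the doublet score held more cycling cells than those kept: 1241 of 4389 (28.3%), against 11% of kept cells. The removed barcodes had medians of 16555 to 22435 UMIs, and of 4941 kept cells at least as deep as the removed median 41.6% were cycling. In the library labelled HFD_shYap, cells were also split by sex-linked RNA after thinning to 5000 UMIs. Of T lineage cells with Xist and no Y-linked UMI 15.9% were cycling (31 of 195, exact 95% interval 11.1 to 21.8), and of those with Y-linked UMIs and no Xist 6.97% (14 of 201, 3.86 to 11.4). In phagocytes the same shares were 7.68% (103 of 1341) and 6.26% (88 of 1406), and in dendritic cells 10.1% and 6.4%.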
